A study of Mus musculus with 46 samples.

Results

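The genes described here are the mouse cytochrome P450 genes of families 1 to 3 that were expressed in control liver. They were chosen by symbol (Cyp1, Cyp2 or Cyp3, a subfamily letter and a number) and by a mean of 1 CPM (counts scaled to each library's total) or more over the control livers. Of 55487 genes listed, 58 matched the symbol and 38 passed the level: 1 of subfamily Cyp1a, 31 of family Cyp2 and 6 of subfamily Cyp3a. The levels of the control livers thus chose the members and are given as a description. Symbols that end in a letter after the number, such as Cyp3a41a, do not match.

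RNA was sequenced from 13 flash-frozen mouse livers: 6 labelled control, 4 labelled Mfn DKO and 3 labelled Tfam KO, all carrying the prefix AAVliver. Mfn1 and Mfn2 encode the mitofusins, which fuse the outer membranes of mitochondria, and Tfam encodes the factor that packages and transcribes mitochondrial DNA. The liver labels name the replicates as biological and give no sex, age, strain, vector, promoter or time after treatment, so what the control livers received is not known from them. The other 33 samples of the series are islets and were not used here.

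Cytochrome P450 enzymes of families 1 to 3 are haem proteins of the endoplasmic reticulum that insert oxygen into drugs, toxicants, steroids and fatty acids, with electrons passed on by P450 oxidoreductase and cytochrome b5. In liver most are made by hepatocytes, many of them around the central vein. Their genes answer to ligand-activated factors such as AHR, CAR (Nr1i3) and PXR (Nr1i2) and to liver factors such as HNF4A, and the pulsed or continuous release of growth hormone sets male and female patterns in mouse.

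Several members are neighbouring copies of one another, and 3 pairs of such copies are shown because their members differ in level or in sex pattern in the livers below. The sequences are the 250 bases before the annotated start of each gene, from RefSeq on build GRCm38.p6, written 5′ to 3′ on the gene's strand, and capitals mark bases that differ from, or have no partner in, the other copy. Cyp2a4 (chr7:26306942-26307191, plus strand) and Cyp2a5 (chr7:26835089-26835338, plus strand) were 98.0% identical over this stretch.
Cyp2a4: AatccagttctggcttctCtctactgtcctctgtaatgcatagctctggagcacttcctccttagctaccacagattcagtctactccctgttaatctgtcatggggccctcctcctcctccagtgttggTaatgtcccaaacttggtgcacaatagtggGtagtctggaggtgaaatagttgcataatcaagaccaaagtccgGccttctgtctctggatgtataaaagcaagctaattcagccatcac
Cyp2a5: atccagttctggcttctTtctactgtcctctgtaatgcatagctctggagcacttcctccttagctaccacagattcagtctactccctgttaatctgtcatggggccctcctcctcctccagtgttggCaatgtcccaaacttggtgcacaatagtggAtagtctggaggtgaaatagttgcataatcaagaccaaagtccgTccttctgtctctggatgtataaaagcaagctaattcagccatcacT
Cyp2b9 (chr7:26173159-26173408, plus strand) and Cyp2b13 (chr7:26061245-26061494, plus strand) were 99.2% identical, with 2 mismatches.
Cyp2b9: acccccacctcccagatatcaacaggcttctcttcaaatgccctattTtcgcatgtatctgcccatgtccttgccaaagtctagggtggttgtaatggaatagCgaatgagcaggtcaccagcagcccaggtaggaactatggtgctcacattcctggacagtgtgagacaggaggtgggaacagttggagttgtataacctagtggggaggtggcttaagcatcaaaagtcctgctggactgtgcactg
Cyp2b13: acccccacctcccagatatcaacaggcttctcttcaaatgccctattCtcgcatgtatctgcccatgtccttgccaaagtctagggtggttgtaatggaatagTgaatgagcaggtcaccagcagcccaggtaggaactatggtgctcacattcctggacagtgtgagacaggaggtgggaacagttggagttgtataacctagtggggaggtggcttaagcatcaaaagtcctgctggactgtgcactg
Cyp2d9 (chr15:82452127-82452376, plus strand) and Cyp2d10 (chr15:82407195-82407444, minus strand) were 83.6% identical, with 37 mismatches and 8 unpaired bases.
Cyp2d9: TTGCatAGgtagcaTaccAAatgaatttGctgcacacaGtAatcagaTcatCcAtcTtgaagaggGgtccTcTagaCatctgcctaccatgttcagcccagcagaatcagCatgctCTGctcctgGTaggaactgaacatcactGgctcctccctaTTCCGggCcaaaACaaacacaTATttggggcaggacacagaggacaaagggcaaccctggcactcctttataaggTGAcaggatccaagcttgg
Cyp2d10: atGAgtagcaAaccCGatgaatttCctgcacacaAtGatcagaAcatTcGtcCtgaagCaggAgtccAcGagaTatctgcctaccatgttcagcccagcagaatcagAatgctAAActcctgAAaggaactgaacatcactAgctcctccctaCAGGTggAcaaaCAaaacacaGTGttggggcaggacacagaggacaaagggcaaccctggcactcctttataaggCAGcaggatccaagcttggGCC

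Promoter windows were found for 33 of the 38 genes, and 34 of these windows, covering all 33 genes, began within 1000 bases of a transcript start of the gene in the GENCODE annotation. A search of the 250 bases on both strands for CAAAGTCCA, a core of the site known for HNF4A, matched 7 of the 34 windows (20.6%), against 0.384% of all 32851 windows of the same length in RefSeq, whose distance to a transcript start was not checked. The 7 stretches are shown so that the match can be read in its context; those of Cyp2c67, Cyp2c68, Cyp2c40 and Cyp2c69 come from related neighbouring copies and are not independent. Capitals mark the match, all stretches lie on the minus strand of the chromosome, and their positions are chr5:145879940-145879978 for Cyp3a11, chr5:145469799-145469837 for Cyp3a16, chr19:39649144-39649182 for Cyp2c67, chr19:39741155-39741193 for Cyp2c68, chr19:39812836-39812874 for Cyp2c40, chr19:39886821-39886859 for Cyp2c69 and chr19:40187327-40187365 for Cyp2c70.
Cyp3a11: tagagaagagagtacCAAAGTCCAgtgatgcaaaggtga
Cyp3a16: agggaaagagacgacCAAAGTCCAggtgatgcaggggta
Cyp2c67: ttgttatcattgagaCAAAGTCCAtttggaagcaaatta
Cyp2c68: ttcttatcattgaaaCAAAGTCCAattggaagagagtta
Cyp2c40: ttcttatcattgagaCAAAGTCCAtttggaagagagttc
Cyp2c69: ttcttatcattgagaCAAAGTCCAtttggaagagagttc
Cyp2c70: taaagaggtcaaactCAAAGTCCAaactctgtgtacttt
The nuclear receptor hexamer TGACCT was found in 11 of the 34 windows (32.4%, against 14% of all windows) and AGTTCA in 5 (14.7%, against 11.8%). The AHR core GCGTG was found in 2 (5.88%, against 28.2%). None of the 34 held TTCNNNGAA, a STAT site (7.02% of all windows), or TTGCGCAA, a C/EBP site (0.164%). A match is a match of letters in this window and shows no binding.

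The livers gave 41961114 to 56894510 counts each. CPM in this paragraph are on library sizes scaled by the trimmed mean of M values, as in the tests below, and not on each library's total. The genes named in the labels were low where the labels say so: Tfam lay at 15, 13.1 and 15.9 CPM in the Tfam KO livers and at 54.2 to 66.2 in controls, Mfn1 at 15.6 to 25.4 in Mfn DKO and 67.8 to 88.3 in controls, and Mfn2 at 32.3 to 45.1 and 113 to 191. Xist, the RNA of the inactive X chromosome, lay at 380.3 CPM or more in 7 livers (control 3, 4 and 5, Mfn DKO 2 and 4, Tfam KO 2 and 3) and under 1 CPM in the other 6, where the Y-linked gene Ddx3y was above 88 CPM. These are called livers with and without Xist. Tfam KO 2 stood apart from the other livers: the summed level of 8 hepatocyte markers was 59287, 23189.7 and 94287 CPM in Tfam KO 1 to 3, 76731 to 98269 in Mfn DKO and 89099.5 to 135823 in controls. In bulk liver, fewer hepatocytes and less RNA per hepatocyte cannot be told apart, and the part of the hepatocyte level in the P450 differences was not tested.

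In controls the authors' TPM, which are scaled by gene length and so allow genes to be ranked, placed Cyp2e1 first. Cyp2e1, which oxidises ethanol and acetaminophen, was at 9340 ± 1347 TPM (SD, n = 6). It was followed by Cyp2d26 at 1347 ± 132, Cyp2a5 at 1269 ± 509, Cyp2d10 at 1064 ± 96.3, Cyp2d9 at 642 ± 646, Cyp2c37 at 633 ± 255, Cyp2c70 at 619 ± 77.5 and Cyp2j5 at 597 ± 61.9 TPM. From Cyp2d26 to Cyp2j5 neighbours in this order did not differ by more than the larger of their SD. The order pools livers with and without Xist and differs between these classes: in the 3 controls with Xist, Cyp2a5 averaged 1441 TPM, Cyp2d26 1407 and Cyp2a4 1151, and Cyp2d9 averaged 55.8 TPM with Xist and 1229 without. The lowest members were Cyp3a59 at 9.73 ± 4.31, Cyp2j9 at 6.99 ± 1.26, Cyp2c39 at 5.15 ± 4.88 and Cyp2g1 at 2.68 ± 1.85 TPM.

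The 38 genes together made up 1.97% to 2.32% of all TPM in the 6 controls. In Mfn DKO 1 to 4 they made up 1.08%, 1.38%, 1.26% and 1.52%, all below the controls. In Tfam KO 1 to 3 they made up 1.03%, 0.490% and 1.80%, again all below, with Tfam KO 2 lowest. Cyp2e1 accounted for 36.4% to 49.0% of the pool in controls. Without it the remaining 37 genes made up 1.09% to 1.48% of TPM in controls, 0.597%, 1.06%, 0.691% and 1.07% in Mfn DKO, and 0.625%, 0.445% and 1.20% in Tfam KO. Tfam KO 3, a liver with Xist, then fell within the range of all controls. It still lay below the controls with Xist, controls 3, 4 and 5, which had 1.32%, 1.32% and 1.48%.

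**Figure D1:**
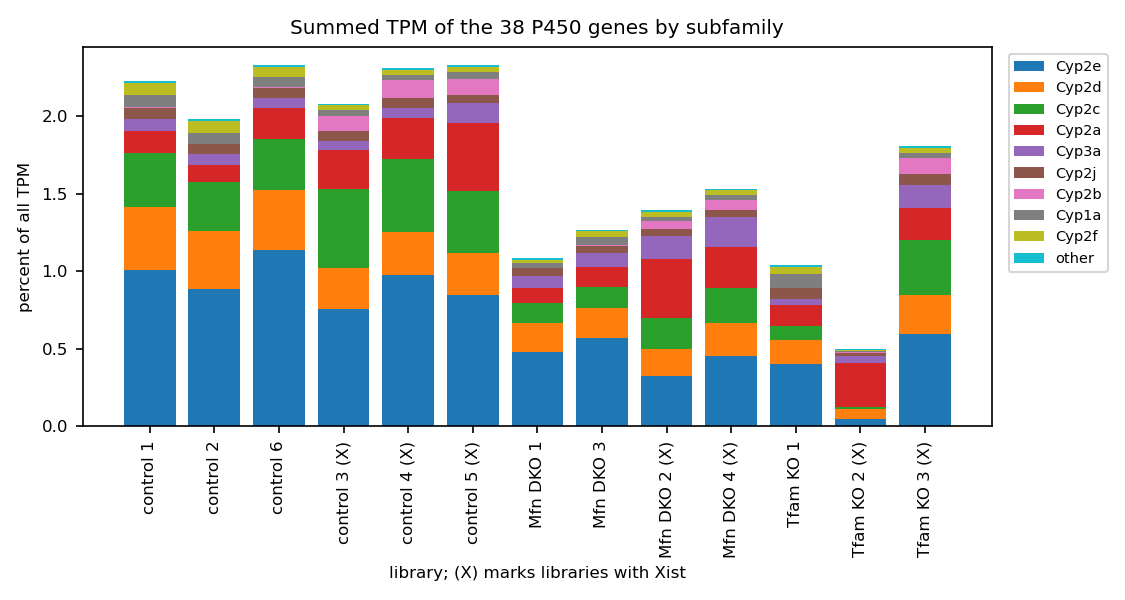
Stacked bars give the summed TPM of the 38 P450 genes by subfamily as a percent of all TPM (vertical axis) in each liver (horizontal axis; X marks livers with Xist). Controls reach 1.97% to 2.32%, Mfn DKO livers 1.08% to 1.52%, and Tfam KO livers 0.490% to 1.80%.

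Differences between groups were tested with edgeR's quasi-likelihood test over 17024 genes. CPM below are on library sizes scaled by the trimmed mean of M values (TMM), a gene is called at a Benjamini-Hochberg adjusted p of 0.05 or less, and log2 fold changes are given ± SE. Both knockouts were set against the same 6 controls, so their results are not independent. In Mfn DKO against control, 33 of 38 members had negative log2 fold changes, with a median of -0.96 against 0.02 for all genes, and 3 were called lower and 0 higher. Of all genes tested 9.87% were called, 4.64% lower and 5.23% higher, and of those with a control mean of 1 CPM or more 5.85% were called lower, so the share of members called, 7.89%, lies near the background. In Tfam KO against control, 36 of 38 were negative with a median of -1.17 against 0.03 for all genes, and 7 were called lower and 0 higher. There 29.3% of all genes were called, 11.3% lower and 18.1% higher, and 13.7% of genes at 1 CPM or more in controls were called lower, beside 18.4% of members. Members were chosen by their control level, which leaves out matching genes that are low in controls and rise, such as Cyp2b10 below. For genes tested at 1 CPM or more in controls the median was -0.01 in Mfn DKO and 0.01 in Tfam KO. The shares called higher were not taken under that choice. Scaling by total counts left 33 members negative in Mfn DKO and 32 in Tfam KO, where Cyp2j6, Cyp3a13, Cyp3a59 and Cyp2a22, none of them called, turned positive.

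The number of members called rested on which livers were fitted. In Mfn DKO 0 members were called when control 1, 4 or 6 or any 1 Mfn DKO liver was left out (4.05% to 7.29% of all genes called), 1 without control 2 or 3 (6.21% and 7.81%), and 9 without Tfam KO 3 (16.5%). In Tfam KO 21 were called lower without Tfam KO 3 (41.8% of all genes). Leaving out Tfam KO 2 gave 15 members lower in Mfn DKO (19.5% of all genes called) and 6 lower in Tfam KO (14.5%). Fitting Mfn DKO and control livers alone gave 19 members lower and 0 higher (27.0% of all genes). With the Xist class as a further term in the fit of all 13 livers, 4 members were called lower and 1 higher in Mfn DKO (13.1% of all genes, 5.86% lower and 7.25% higher), and 9 lower and 0 higher in Tfam KO (31.2%, 12.1% lower and 19.1% higher). With that term and only the Mfn DKO and control livers, 25 were lower and 4 higher (35.4%), the 4 being Cyp3a44, Cyp3a11, Cyp3a59 and Cyp2a4.

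By values alone, all Mfn DKO livers lay below all controls in 14 members and above them in 0. Among genes with 1 CPM or more in controls the shares were 13.2% lower and 9.06% higher. Within livers with Xist (2 against 3), 29 members were apart and lower and 2 higher (background 25.8% and 21.9%), and within livers without Xist (2 against 3), 23 lower and 4 higher (30.5% and 29.3%). For 21 of the 38 members the Mfn DKO livers lay below the controls in both classes (background 18.2%), among them all 5 of Cyp2d, all 3 of Cyp2j and 7 of 12 of Cyp2c. All Tfam KO livers lay below all controls in 7 members and above in 0 (background 12.3% and 11.4%). Within livers with Xist (2 against 3) 19 members were apart and lower and 0 higher (21.2% and 19.2%), and without Xist (1 against 3) 32 lower and 3 higher (38.4% and 44.1%).

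**Figure D2:**
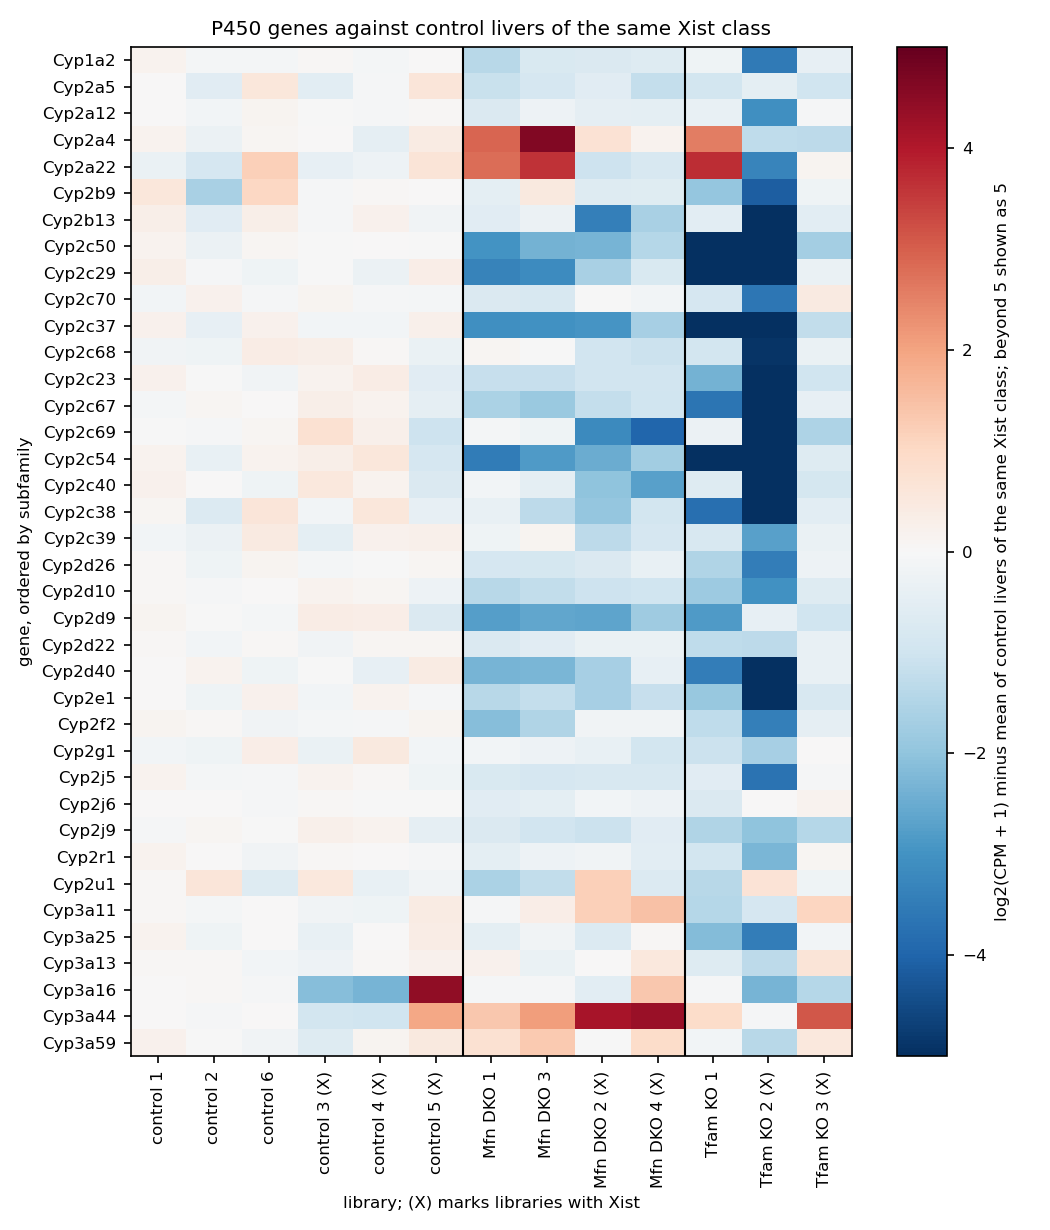
Colours give log2(CPM + 1) of each P450 gene (vertical axis, by subfamily) in each liver (horizontal axis; X marks livers with Xist) minus the mean of the control livers of the same Xist class. Blue, lower than those controls, fills most of the Cyp2c and Cyp2d blocks in Mfn DKO 1 to 4 and in Tfam KO 1 and 2, while Cyp3a44 is red in Mfn DKO.

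Cyp2e1 fell to 27.5% of the control mean in Tfam KO. The 6 controls had 7619, a median of 9236 and 12038 CPM (lowest, median and highest), the Mfn DKO livers 3995, 2621, 4569 and 3738 and the Tfam KO livers 2787, 235 and 4796 CPM. Every knockout liver was below every control liver. The log2 fold change was -1.86 ± 0.63, adjusted p = 0.0407, in Tfam KO and -1.34 ± 0.55, adjusted p = 0.130, in Mfn DKO. Leaving out Tfam KO 2 gave -1.32 (adjusted p = 0.00958) in Tfam KO and -1.34 (adjusted p = 0.00137) in Mfn DKO.

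In subfamily Cyp2d, the mouse counterparts of human CYP2D6, all 5 members had negative log2 fold changes in both knockouts. Cyp2d10 had 632, a median of 847 and 910.2 CPM in controls, 338, 365, 374 and 381 in Mfn DKO and 248, 91.5 and 476 in Tfam KO. The knockout livers did not overlap the controls, and the 4 Mfn DKO livers lay close together. The log2 fold changes were -1.17 ± 0.32, adjusted p = 0.0387, and -1.60 ± 0.37, adjusted p = 0.00802. Cyp2d22 fell in Tfam KO, from 191, a median of 250.4 and 315 CPM in controls to 122, 85.2 and 164, by 1.06 on the log2 scale (± 0.21, adjusted p = 0.00430). In Mfn DKO it lay at 183, 170.0, 201 and 172 CPM, with a log2 fold change of -0.50 ± 0.19 and adjusted p = 0.105. The groups overlapped only across Xist classes: the liver at 201 CPM, without Xist, lay above the lowest control, which has Xist. Within each class the Mfn DKO livers lay below the controls for Cyp2d22, as for all 5 members of Cyp2d. Cyp2d26 had 963, a median of 1152 and 1219 CPM in controls, 629, 694, 608 and 882 in Mfn DKO and 396, 104 and 963 in Tfam KO. Its Mfn DKO livers lay below all controls, Tfam KO 3 was level with the lowest control, and neither test passed (adjusted p = 0.300 and 0.0659). Cyp2d40 had 69.2, a median of 112 and 134 CPM in controls, 22.6, 28.1, 23.2 and 68.9 in Mfn DKO and 9.90, 0.740 and 71.4 in Tfam KO (adjusted p = 0.214 and 0.116). In a fit of only the Mfn DKO and control livers, Cyp2d26 (-0.68, adjusted p = 0.00231) and Cyp2d40 (-1.58, adjusted p = 0.00528) were called lower. Cyp2d22 (-0.51, adjusted p = 0.0243) was called lower in that fit too.

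Subfamily Cyp2a holds Cyp2a5, the coumarin hydroxylase of mouse liver. Cyp2a5 had 701, a median of 1129 and 1941 CPM in controls, 488, 868, 578 and 552 in Mfn DKO and 559, 911 and 639 in Tfam KO. Mfn DKO 2 and Tfam KO 2 lay within the control range. Its log2 fold change of -0.98 ± 0.29 in Mfn DKO had an adjusted p of 0.0497, a call that was lost without a filter on low counts and with scaling by total counts. In Tfam KO the value was -0.80 ± 0.32 with adjusted p = 0.0740, and 0.0469 with the Xist class. The call with that class was lost with only the Tfam KO and control livers (-0.88, adjusted p = 0.0999). It was kept without Tfam KO 2 (-1.03, adjusted p = 0.0454). In Tfam KO 2, where Cyp2e1 was at 235 CPM, Cyp2a5 was at 911 CPM and subfamily Cyp2a made up 57.8% of the P450 pool, against 5.56% to 18.7% in controls. Cyp2a12, a steroid hydroxylase, had 605, a median of 732 and 796 CPM in controls, 409, 549, 559 and 545 in Mfn DKO and 522, 89.3 and 730.4 in Tfam KO. All 4 Mfn DKO livers were below the controls (log2 fold change -0.47 ± 0.38, adjusted p = 0.448, and 0.0102 with only the Mfn DKO and control livers).

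Subfamily Cyp2j holds fatty acid epoxygenases and hydroxylases. Cyp2j9 had the smallest adjusted p of the members in both comparisons. It lay at 6.75, a median of 11.5 and 13 CPM in controls, at 7.07, 3.94, 5.85 and 6.13 in Mfn DKO and at 3.69, 1.56 and 2.91 in Tfam KO. The Tfam KO livers were all below the controls, whereas Mfn DKO 1 lay just above the lowest control. The log2 fold changes were -0.93 ± 0.25, adjusted p = 0.0345, and -2.02 ± 0.29, adjusted p = 0.00101. Cyp2j5, an abundant epoxygenase, had 513, a median of 670.5 and 793 CPM in controls, 414, 347, 394 and 344 in Mfn DKO and 474, 44.8 and 573 in Tfam KO. Its Mfn DKO livers did not overlap the controls (log2 fold change -0.81 ± 0.46, adjusted p = 0.268, and -0.81, adjusted p = 0.00159, without Tfam KO 2).

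Subfamily Cyp2c lies on chromosome 19, in a cluster except for Cyp2c23, which lies apart from it. It holds 12 members, several of which form epoxides or hydroxides of arachidonic and linoleic acid. All 12 had negative log2 fold changes in both knockouts. Cyp2c50 had 558, a median of 595 and 849.9 CPM in controls, 92.2, 113, 143 and 209 in Mfn DKO and 16.5, 5.32 and 172 in Tfam KO. All 7 knockout livers lay below all controls, and the Tfam KO livers ranged widely. The log2 fold changes were -3.35 ± 0.86, adjusted p = 0.0125, in Tfam KO and -2.24 ± 0.71, adjusted p = 0.0640, in Mfn DKO. Cyp2c23, an arachidonic acid epoxygenase, had 177, a median of 318 and 396 CPM in controls, 157, 131, 156 and 132 in Mfn DKO and 67.2, 6.53 and 128 in Tfam KO. These groups did not overlap either, with log2 fold changes of -2.20 ± 0.62, adjusted p = 0.0194, and -1.10 ± 0.52, adjusted p = 0.192. With only Tfam KO and control livers in the fit, Cyp2e1 and Cyp2c23 were not called. With only Mfn DKO and control livers, Cyp2c50 (-2.24, adjusted p = 1.21e-04) and Cyp2c23 (-1.10, adjusted p = 0.00163) were called lower in Mfn DKO. Cyp2c54 was called in Tfam KO (-3.18 ± 1.02, adjusted p = 0.0331) with 50.2 to 343 CPM in controls and 7.57, 1.03 and 58.6 in Tfam KO, and lost the call with the Xist class in the fit (-2.71, adjusted p = 0.0630) or without Tfam KO 2 (-2.62, adjusted p = 0.0587).

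Cyp2c29 and Cyp2c37 differed widely among the Tfam KO livers. Cyp2c29, an epoxygenase raised by phenobarbital in textbook accounts, had 383, a median of 609 and 889 CPM in controls, 71.0, 153, 82.5 and 273 in Mfn DKO and 12.4, 4.19 and 374 in Tfam KO. Cyp2c37 had 277, a median of 527 and 820.4 CPM in controls, 42.8, 89.2, 44.0 and 215 in Mfn DKO and 5.95, 3.10 and 290.0 in Tfam KO. In both genes Tfam KO 3 lay near or within the range of all controls while Tfam KO 1 and 2 lay far below the lowest control. Tfam KO 3 is a liver with Xist. Against the mean of the controls with Xist its log2(CPM + 1) differed by -0.33 for Cyp2c29 and by -1.24 for Cyp2c37. Neither gene passed the test in the fit of all 13 livers: adjusted p was 0.169 and 0.128 for Cyp2c29 in Mfn DKO and Tfam KO, and 0.143 and 0.129 for Cyp2c37. In a fit of only the Mfn DKO and control livers both were called lower (Cyp2c29 -2.07, adjusted p = 0.00299, and Cyp2c37 -2.45, adjusted p = 0.00446). With the Xist class Cyp2c37 was called in Tfam KO (-3.22 ± 1.12, adjusted p = 0.0454), but not with that class and only the Tfam KO and control livers (-3.20, adjusted p = 0.110). Cyp2c70, which makes muricholic acids in mouse, had 494, a median of 574 and 714 CPM in controls, 379, 512, 359.7 and 473 in Mfn DKO and 348, 41.6 and 717 in Tfam KO, and the groups overlapped. The Cyp2c copies share sequence, and 28.8% of the 151-base windows of the Cyp2c40 transcript, 22.2% of Cyp2c69, 12.9% of Cyp2c67 and 8.70% of Cyp2c68 occur in another gene, so counts could be split between them.

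**Figure D3:**
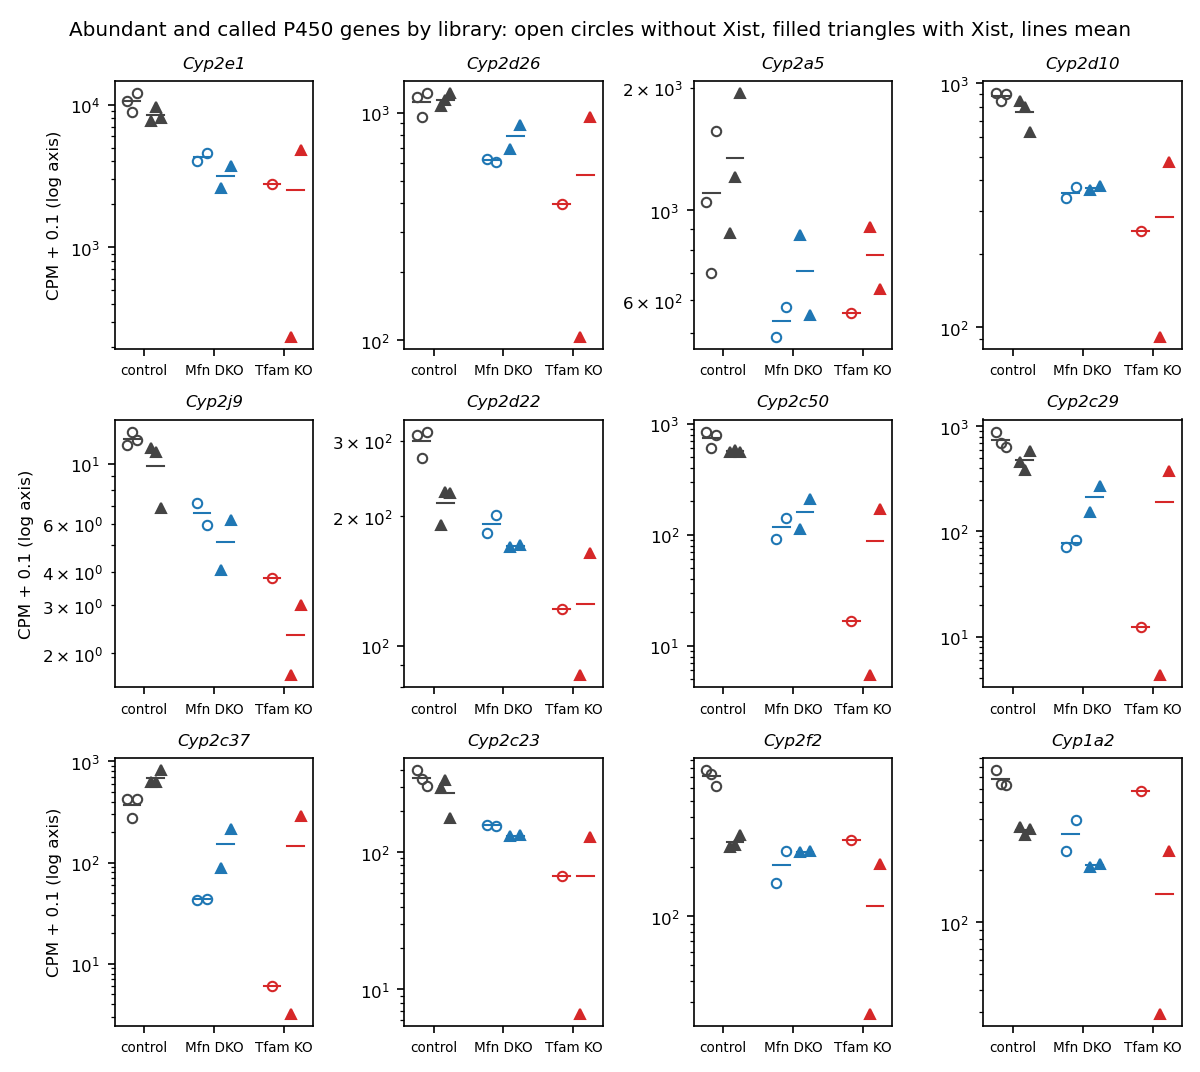
Each point is the TMM-scaled CPM plus 0.1 (log axis) of 1 liver for 12 P450 genes by group, with open circles for livers without Xist, filled triangles for livers with Xist and lines at the mean of each class. Cyp2e1, Cyp2d10, Cyp2c50, Cyp2c29 and Cyp2c23 have no knockout liver within the control range, and the lowest Tfam KO triangle of each abundant gene except Cyp2a5 is Tfam KO 2.

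Cyp1a2, an AHR target that oxidises caffeine and aromatic amines, had 768, 639 and 629.9 CPM in controls without Xist and 359.8, 323 and 350.0 in controls with Xist. In Mfn DKO it had 261 and 393 without and 210.0 and 219 with Xist, in each class below the controls of the same class. In Tfam KO 1 to 3 it had 584, 29.1 and 260.4 CPM. Neither comparison was called (adjusted p = 0.311 and 0.343, and 0.219 and 0.220 with the Xist class). Fitting only the Mfn DKO and control livers, Cyp1a2 was called lower in Mfn DKO (-0.92, adjusted p = 0.0344). Cyp2f2, which activates naphthalene, had 775, 738 and 623 CPM in controls without and 265, 272 and 313 in controls with Xist, 159.6, 247, 248 and 248 in Mfn DKO 1 to 4 and 290.2, 25.3 and 206 in Tfam KO 1 to 3. The 4 Mfn DKO livers were all below the lowest control, though by little in livers with Xist, and the test did not pass (adjusted p = 0.185 and 0.0756). It passed in Mfn DKO with only the Mfn DKO and control livers (-1.15, adjusted p = 0.0312). Cyp2r1, a vitamin D 25-hydroxylase, lay at 11.1 to 14.5 CPM in controls, 7.70 to 10.7 in Mfn DKO and 6.37, 1.62 and 12.4 in Tfam KO.

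In subfamily Cyp3a, 4 of 6 members had positive log2 fold changes in Mfn DKO. Cyp3a11, the main drug-metabolising Cyp3a enzyme of mouse liver and a PXR target, had 428, a median of 475 and 742 CPM in controls. In Mfn DKO it had 438 and 569 in the livers without Xist, which is within the controls, and 1272 and 1518 in those with Xist, which is above all controls. In Tfam KO 1 to 3 it had 171, 311 and 1176 CPM, with Tfam KO 1 and 2 below and Tfam KO 3 above all controls. The log2 fold changes were 0.89 ± 0.47, adjusted p = 0.235, and 0.11 ± 0.52, adjusted p = 0.896. Cyp3a59 lay at 6.01 to 15 CPM in controls and 12.5, 10.3, 18.5 and 20.7 in Mfn DKO (adjusted p = 0.204). With the Xist class and only the Mfn DKO and control livers, Cyp3a11 (0.74, adjusted p = 0.0226) and Cyp3a59 (0.82, adjusted p = 0.0307) were called higher. Without that class the same livers gave no call for either (adjusted p = 0.0549 and 0.0637). Cyp3a25 and Cyp3a13 overlapped the controls in Mfn DKO, and Cyp3a25 had a log2 fold change of -1.48 ± 0.53 in Tfam KO with adjusted p = 0.0509.

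Cyp3a44 was the member called higher in Mfn DKO once the Xist class was in the fit (adjusted p = 0.00897); the 3 controls without Xist were near 0, so no fold is given. In livers with Xist it had 9.48, 8.94 and 74.4 CPM in controls, 344 and 398 in Mfn DKO and 17.9 and 172 in Tfam KO. In livers without Xist it had 0.0456, 0 and 0.0497 CPM in controls, 1.61 and 3.35 in Mfn DKO and 0.934 in Tfam KO 1. The Mfn DKO livers were above the controls in both classes. Without that term the adjusted p was 0.236. Its neighbour Cyp3a16, 94.4% identical to it in the 250 bases before the start, did not follow: it had 1.72, 1.38 and 259 CPM in controls 3, 4 and 5, 7.34 and 29.4 in Mfn DKO 2 and 4 and 1.35 and 3.38 in Tfam KO 2 and 3, with control 5 highest.

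**Figure D4:**
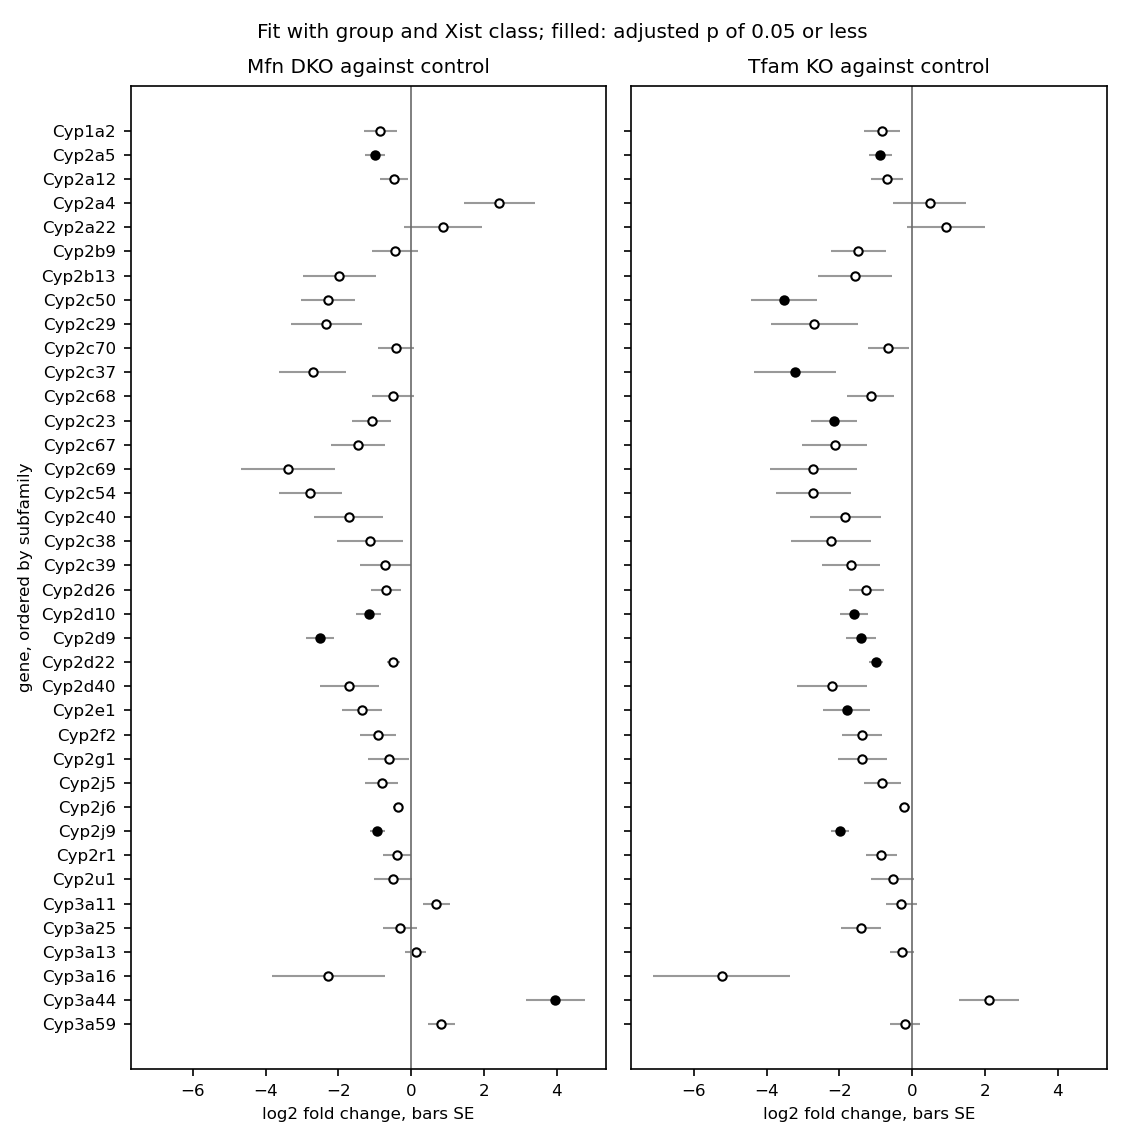
Points are log2 fold changes with SE bars (horizontal axis) for each P450 gene (vertical axis, by subfamily), from the fit with group and Xist class, Mfn DKO left and Tfam KO right; filled points have adjusted p of 0.05 or less. All Cyp2c and Cyp2d points lie left of 0, 5 points are filled for Mfn DKO with Cyp3a44 on the right of 0, and 9 for Tfam KO, while the points of genes near 0 in a class depend on the prior count of the fit.

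Tfam KO and Mfn DKO were also compared with each other, and 0 members were called by edgeR (0.294% of all genes, 0.188% lower and 0.106% higher), with 2 members (3480 of all 17024 genes) at an unadjusted p of 0.05 or less and 1 by DESeq2's Wald test (6.39% of all genes). Cyp2j9 had a log2 fold change of -1.08 ± 0.30 (adjusted p = 0.101) and Cyp2d22 of -0.55 ± 0.22 (adjusted p = 0.195), while Cyp2e1 had -0.52 ± 0.62 (adjusted p = 0.653). Leaving out Tfam KO 3 gave 17 members lower in Tfam KO than in Mfn DKO (24.0% of all genes), and leaving out Tfam KO 2 gave 0 (0.283%). In the livers without Xist, where Tfam KO is 1 liver assumed to vary like the others, 18 members were lower and 1 higher (14.2%).

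Many members differed between livers with and without Xist. Over all 13 livers, with the group in the fit, 8 members were called higher and 2 lower in livers with Xist, where 3.04% of all genes were called, 1.54% higher and 1.50% lower. Cyp2c69, Cyp2b13, Cyp2c40, Cyp2a4, Cyp3a44 and Cyp3a16 reached the control mean of 1 CPM only through the controls with Xist. Cyp2c39, with a control mean of 3.88 CPM, reached it mainly through them, at 9.25 TPM with and 1.05 without Xist. The number called higher thus follows in large part from the choice of members and is given as a description. The shares of all genes tested were not taken under the same choice. By values, 14 members were apart and higher with Xist in controls and 10 lower (background 16.0% and 14.9%), 19 and 8 in Mfn DKO (22.9% and 27.3%), and 13 and 5 in Tfam KO (19.3% and 28.6%). Cyp2d9, a steroid hydroxylase known as male-predominant, had 1721, 1549 and 1462 CPM in controls without Xist and 83.3, 81.0 and 38.8 in controls with Xist. The classes did not overlap in any group, and the difference was -4.06 ± 0.34 on the log2 scale (adjusted p = 3.74e-05). Cyp2u1, a fatty acid hydroxylase, was the other gene lower with Xist, at 49.2, 72.7 and 30.4 CPM in controls without and 7.34, 3.43 and 4.14 in controls with Xist (-2.32 ± 0.47, adjusted p = 0.0223). Cyp2d10, which shares the Cyp2d9 promoter stretch shown above to 83.6%, gave -0.04 ± 0.28 (adjusted p = 0.954).

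The 8 members higher with Xist were Cyp3a44, Cyp2c69, Cyp2b13, Cyp2c40, Cyp2a4, Cyp2b9, Cyp3a16 and Cyp2c39. Cyp2c69 had 691, 479 and 198 CPM in controls with Xist and 0.205, 0.158 and 0.298 in those without (adjusted p = 6.23e-04). Cyp2b13 had 391, 481 and 364 against 1.14, 0.158 and 1.12 CPM (adjusted p = 7.44e-04), and Cyp2c40 428, 341 and 183 against 1.21, 0.951 and 0.646 CPM (adjusted p = 9.10e-04). These genes were near 0 without Xist, so no fold is given. Cyp2b9, 99.2% identical to Cyp2b13 before the start, had 486, 522 and 515 CPM with and 45.8, 9.32 and 64.5 without Xist, and so was not near 0 in either class (adjusted p = 0.00698). Cyp2a4, a testosterone hydroxylase, had 896, 638 and 1178 against 0.821, 0.317 and 0.745 CPM (adjusted p = 0.00193), whereas Cyp2a5, 98.0% identical to it before the start, gave 0.36 ± 0.23 (adjusted p = 0.437).

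Some members also stood apart from controls within a class, though not always in both classes. In livers without Xist, Cyp2d9 was at 234 and 258 CPM in Mfn DKO and 219 in Tfam KO 1, or 15.6% and 13.9% of the control mean of that class. In livers with Xist it was at 9.47 and 17.9 CPM in Mfn DKO and 47.4 and 31.8 in Tfam KO, where the liver at 47.4 lay within the controls of that class. With the Xist class in the fit it was called lower in both knockouts (-2.51 ± 0.38, adjusted p = 0.00185, and -1.40 ± 0.42, adjusted p = 0.0250). Without that term neither was called (adjusted p = 0.202 and 0.141), nor was Tfam KO with that term and only the Tfam KO and control livers (adjusted p = 0.0625). Cyp2a4, near 0 in controls without Xist, was at 11.2 and 38.8 CPM in Mfn DKO and 8.52 in Tfam KO 1, above all 3 of those controls. In livers with Xist it was at 1460.0 and 983 CPM in Mfn DKO, overlapping the controls of that class, and 367 and 358 in Tfam KO, below them. With the Xist class and only the Mfn DKO and control livers, Cyp2a4 was called higher in Mfn DKO (adjusted p = 0.0269). Cyp2a22 was not among the members called for the Xist class. Without Xist it was at 1.89, 1 and 7.28 CPM in controls, 24.1 and 43.9 in Mfn DKO and 45.9 in Tfam KO 1. These 3 knockout livers lay above those controls.

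Members that were high with Xist did not all keep that level in the knockouts. Cyp2c69 was at 43.0 and 24.9 CPM in Mfn DKO with Xist and 0.610 and 138 in Tfam KO with Xist, all below the controls with Xist. Cyp2b13 was at 37.8 and 133 and 2.17 and 287 CPM, and Cyp2c40 at 73.3 and 44.7 and 1.22 and 164 CPM, also below them. Cyp2b9 was at 321 and 336 and 28.3 and 440.0 CPM. None of these was called in the fit with the Xist class over all 13 livers (adjusted p between 0.0988 for Cyp2c69 and 0.656 for Cyp2b9 in Mfn DKO). With that class and only the Mfn DKO and control livers, Cyp2c69 (adjusted p = 2.42e-04), Cyp2c40 (adjusted p = 0.00261) and Cyp2b13 (adjusted p = 0.00480) were called lower and Cyp2b9 was not (adjusted p = 0.367).

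Whether a knockout difference itself differed between the classes was tested as an interaction. By edgeR 0 members passed for either knockout (0.00% of all genes), with 4 members for Mfn DKO and 6 for Tfam KO at an unadjusted p of 0.05 or less (503 and 1336 of all 17024 genes), and 1 and 2 members by DESeq2's Wald test (0.200% and 0.593% of all genes). Tfam KO without Xist is 1 liver. With Tfam KO 2 or 3 left out the test sets 1 Tfam KO liver against 1 other, assumed to vary like the rest, and says which livers differed rather than which classes: it then gave 17 members (8.63% of all genes) and 18 (13.5%).

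**Figure D5:**
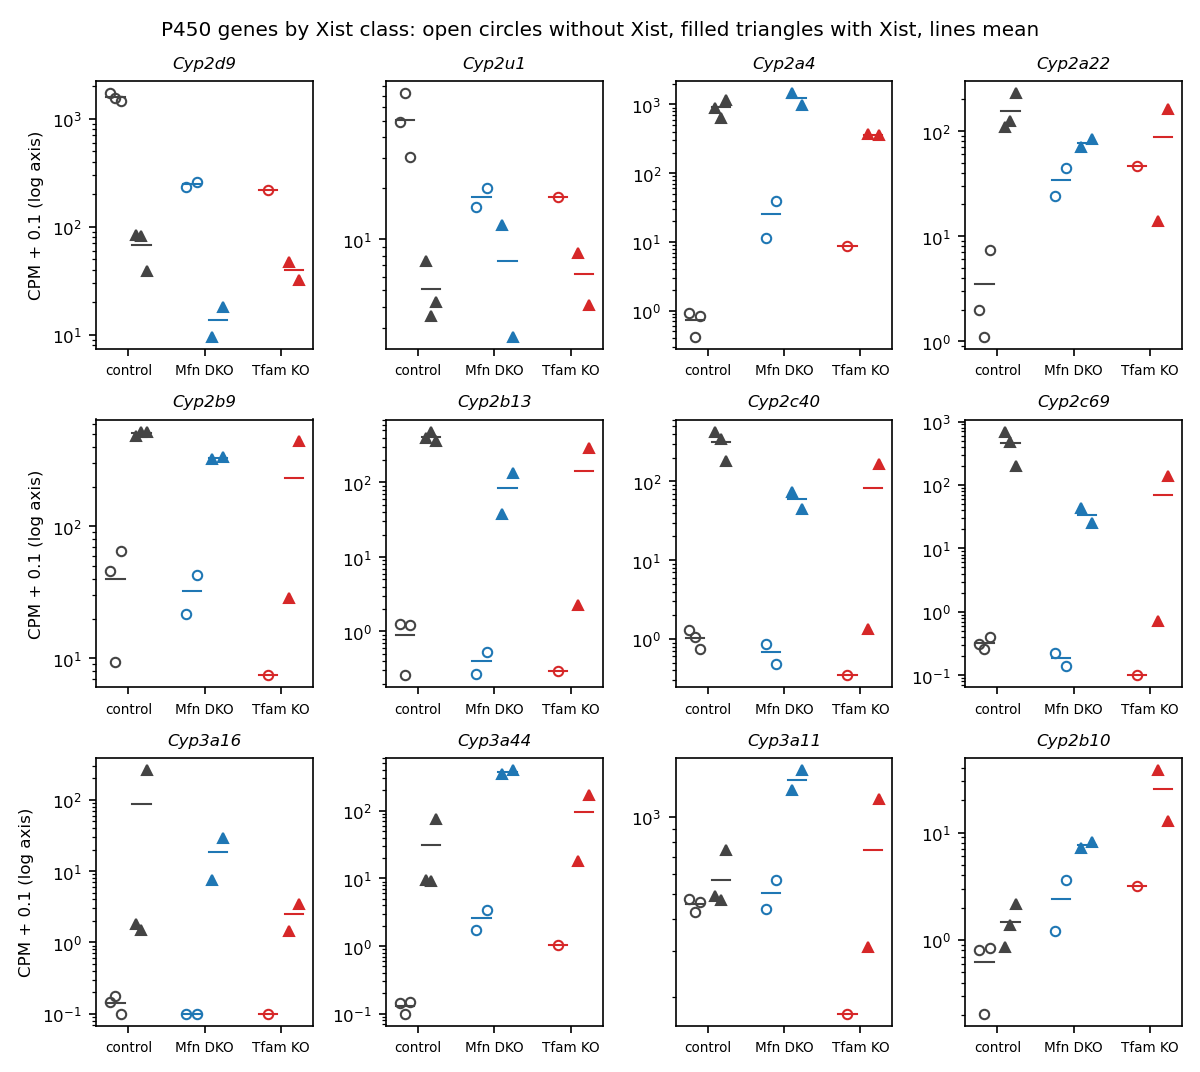
Each point is the TMM-scaled CPM plus 0.1 (log axis) of 1 liver for 12 P450 genes by group, with open circles for livers without Xist, filled triangles for livers with Xist and lines at the mean of each class. Cyp2d9 circles lie above triangles in each group, and the reverse holds for Cyp2a4, Cyp2b13, Cyp2c40 and Cyp2c69.

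Of the 20 matching genes outside the threshold, Cyp2s1 (0.868 CPM in controls by the authors' values), Cyp2c55 (0.867) and Cyp2b10 (0.856) lay just under it, and Cyp3a59, Cyp2c39 and Cyp2g1 were the lowest members inside. Cyp2b10, the classical CAR target induced by phenobarbital, had 0.707, 0.106, 0.754, 1.27, 2.08 and 0.745 CPM in controls 1 to 6, 1.10, 7.03, 3.49 and 8.07 in Mfn DKO and 3.10, 38 and 12.8 in Tfam KO. All Tfam KO livers and 3 of 4 Mfn DKO livers lay above all controls. It rose in Tfam KO (4.23 ± 0.77, adjusted p = 0.00275, and 3.05, adjusted p = 0.0179, without Tfam KO 2), and in Mfn DKO its log2 fold change was 2.36 ± 0.72 (adjusted p = 0.0544, and 0.0129 with the Xist class). Cyp3a57 was near 0 in controls (0, 0, 0, 0.0411, 0.170 and 0 CPM) and lay at 0.424, 0.870, 0.988 and 0.718 in Mfn DKO and 1.59, 1.48 and 0.492 in Tfam KO (adjusted p = 0.00767 and 0.00196). Cyp1b1, an AHR target with a control mean under 1 CPM, was called higher in Tfam KO (1.22 ± 0.36, adjusted p = 0.0233), a call that was lost without Tfam KO 2 (0.81, adjusted p = 0.175). Cyp2d11 lay at 0.151 to 1.03 CPM in controls and at 0.0655, 0.169 and 0 in Tfam KO, so near 0 that no fold is given (adjusted p = 0.0293, and 0.0662 with only Tfam KO and control livers).

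The partners and regulators of P450 enzymes were read from lists, and no list was tested as a set. Of all genes tested 4.64% were called lower and 5.23% higher in Mfn DKO. In Tfam KO these shares were 11.3% and 18.1%, and the list counts are to be read beside them. Of 4 electron partners 0 were called in Mfn DKO (median log2 fold change -0.37) and 3 fell in Tfam KO (median -0.76). P450 oxidoreductase, Por, went from 623 to 1028 CPM in controls to 489.8, 319 and 621 in Tfam KO (-0.77 ± 0.24, adjusted p = 0.0299). Of 11 genes of haem synthesis and breakdown 4 fell and 1 rose in Mfn DKO (median -0.40), and 8 fell and 1 rose in Tfam KO (median -0.66). The gene that rose was Hmox1, haem oxygenase, at 18.2 to 28.3 CPM in controls, 46.5, 47.7, 33.3 and 56.8 in Mfn DKO and 49.9, 92.1 and 48.6 in Tfam KO (adjusted p = 0.0130 and 0.00120). Uros and Urod, enzymes of haem synthesis, fell in both (-0.48 and -0.58 in Mfn DKO, -0.66 and -0.79 in Tfam KO).

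Of 16 regulators 1 fell and 1 rose in Mfn DKO (median -0.17), and 5 fell and 1 rose in Tfam KO (median -0.39). The shares of all genes called in either direction were 9.87% and 29.3%. Foxa2 fell in both (-0.86 ± 0.21, adjusted p = 0.0236, and -1.14 ± 0.24, adjusted p = 0.00470). Nr1i3, which encodes CAR, had 50.6 to 84.5 CPM in controls, 29.7, 26.4, 33.4 and 39.6 in Mfn DKO and 8.04, 3.73 and 42.1 in Tfam KO. All knockout livers were below all controls, and the call was made in Tfam KO (-1.92 ± 0.57, adjusted p = 0.0253). Of 3 further AHR targets Tiparp rose in both (0.72 ± 0.20, adjusted p = 0.0373, and 0.65 ± 0.21, adjusted p = 0.0377; list medians 0.70 and 0.65). Of 10 growth hormone pathway genes 1 fell in Mfn DKO (median -0.61), and 3 fell and 1 rose in Tfam KO (median -0.95), Cish, a STAT5 target, falling in both (-1.45, adjusted p = 0.0150, and -1.69, adjusted p = 0.00550).

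The sex-biased genes outside P450 families 1 to 3 differed with the Xist class: all 10 of the male-biased list, which holds Cyp4a12a and Cyp7b1 of other P450 families, were called lower and all 10 of the female-biased list higher in livers with Xist. In controls the summed male-biased level was 7265 to 11554 CPM without and 141 to 257 with Xist. Without Xist it was 2496 and 2537 CPM in Mfn DKO and 3409 in Tfam KO 1, and with the Xist class in the fit 4 of 10 fell in Mfn DKO and 6 of 10 in Tfam KO. The summed female-biased level with Xist was 904 to 1708 CPM in controls, 267 and 365 in Mfn DKO and 74.2 and 700.0 in Tfam KO, with 1 of 10 higher in Mfn DKO and 0 called in Tfam KO. In that fit 5.86% of all genes were lower and 7.25% higher in Mfn DKO, and 12.1% and 19.1% in Tfam KO. For the Xist class the shares were 1.50% lower and 1.54% higher.

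Zonation and cell type lists were read beside these results, in the fit without the Xist class. There 4.64% of all genes were called lower and 5.23% higher in Mfn DKO, and 11.3% and 18.1% in Tfam KO. Of 8 pericentral genes 1 fell in Mfn DKO (median -0.56) and 5 in Tfam KO (median -1.53), and of 8 periportal genes 0 and 1 fell (medians 0.24 and -0.61). Of 11 acute phase genes tested 0 were called in Mfn DKO (median 0.18) and 1 rose in Tfam KO (median 0.05). Of 8 hepatocyte markers 1 rose in Mfn DKO and 3 fell in Tfam KO. Among markers of other cells, 1 of 6 macrophage markers rose in each knockout, 0 and 1 of 6 endothelial markers rose, 1 of 7 stellate and fibroblast markers rose in each (1 fell in Tfam KO), and 0 of 6 cholangiocyte and 0 of 6 lymphocyte markers were called. Summed macrophage markers were 399 to 723 CPM in controls, 529.7 to 1224 in Mfn DKO and 261 to 749.5 in Tfam KO, endothelial 229.9 to 269, 229 to 351 and 231 to 284, stellate and fibroblast 262 to 344, 321 to 385 and 249 to 310.4. Cholangiocyte markers summed to 32.8 to 69.4, 55.1 to 104 and 27.3 to 128 CPM and lymphocyte markers to 13.5 to 28.1, 20.2 to 37.4 and 7.13 to 30.1 CPM. Their part in the P450 differences was not tested.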

How the data were processed

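RNA from 13 mouse livers was analysed. The deposited tables give, per gene, counts, CPM and TPM made by the authors. Per the submitters' processing notes, STAR 2.6.1b, RSEM 1.3.1 and featureCounts were used with GRCm38; which of them made the counts, and with what annotation, is not given in the sources used here. CPM deposited by the authors chose the members, TPM deposited by the authors ranked genes within a library, and the authors' counts were tested. edgeR 4.0.16 in R 4.3.3 was run with filterByExpr, TMM and glmQLFTest over 17024 genes, with 1 mean per group over all 13 livers, and Benjamini-Hochberg adjustment. SE is the log2 fold change divided by the square root of F. TMM factors ran from 0.862 to 0.929 in controls, 0.995 to 1.04 in Mfn DKO and 1.04 to 1.43 in Tfam KO. Scaling by total counts would raise the median log2 fold change of all genes by 0.19 in Mfn DKO and 0.43 in Tfam KO against control. A liver was taken as with Xist at 10 CPM or more of Xist. Alternatives were DESeq2 1.42.0, other filters and scalings, a replicate block, the Xist class and leaving out each liver. Values per liver are given for the 8 members with the highest TPM in controls, the 5 called members with the smallest adjusted p per comparison and direction, the 4 with the smallest adjusted p of the Xist class in each direction, 7 textbook genes and called genes outside the threshold. Those of Cyp2a4, Cyp2a12, Cyp2a22, Cyp2b9, Cyp2c54, Cyp2d40, Cyp2r1, Cyp3a16 and Cyp3a59 were added after they were seen. From each list at most the 3 genes with the smallest adjusted p are named. The members and lists were chosen with earlier results of these data known. The scripts were tested on simulated data. Promoter sequences are RefSeq's on GRCm38.p6.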

Additional observations from a re-analysis of the deposited data

Results flagged for a closer look

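In groups of 4 or 6 livers, 8 of 78 sets of values held a lowest or highest liver whose gap to its neighbour was large against the whole range by Dixon's test, which chance gives in about 1 of 20 groups. In controls, control 5 was the liver far from the rest for Cyp3a11 (741.8 CPM, highest), Cyp2c67 (151.2, lowest), Cyp3a16 (259.4, highest), Cyp3a44 (74.45, highest) and Cyp2j9 (6.754, lowest). In Mfn DKO, replicate 1 was the lowest for Cyp2a12 (408.7 CPM) and Cyp2f2 (159.6), and replicate 4 the highest for Cyp2d40 (68.87). The cause was not tested.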

How the results depend on the processing

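No member called in the fit of all 13 livers changed direction in the alternatives run. Members called lower in Mfn DKO numbered 3 (in brackets, the percent of all genes called: 9.87%), and 6 by DESeq2's Wald test (16.9%), 0 with only livers with Xist (0.0117%), 21 and 4 higher with only livers without (24.8%), 19 with only the 2 groups (27.0%), 25 and 4 higher with the Xist class and only the 2 groups (35.4%), 22 and 2 higher with the Xist class and without Tfam KO 2 (26.7%), 18 and 2 higher with only livers with Xist and without Tfam KO 2 (8.37%), 1 higher with the Xist class (13.1%), and 0 to 15 leaving out each liver (15 without Tfam KO 2, 19.5%; 9 without Tfam KO 3, 16.5%; 0 without control 1, 4 or 6 or any Mfn DKO liver, 4.05% to 7.29%; 1 without control 2 or 3, 6.21% and 7.81%). Members called lower in Tfam KO numbered 7 (29.3%), and 12 by Wald test (34.6%), 4 with only the 2 groups (19.6%), 3 with the Xist class as well (18.4%), 0 with only livers with Xist (0.00%), 28 and 3 higher with only livers without (34.0%), 11 and 1 higher with the Xist class and without Tfam KO 2 (19.9%), and 4 to 21 leaving out each liver (4 without Tfam KO 1, 19.1%; 21 without Tfam KO 3, 41.8%). Choosing members by the mean over all livers added 1 higher, Cyp2b10. Tfam KO against Mfn DKO gave 1 lower by Wald test (6.39%), 18 lower and 1 higher without Xist (14.2%), and 0 to 17 leaving out each liver (17 without Tfam KO 3, 24.0%). For the Xist class, members higher numbered 13 without a filter (2.53%), 3 with 10 counts in every library (2.98%), 13 with only controls (9.16%) and 7 to 14 leaving out each liver (14 without Tfam KO 2, 10.2%); members lower numbered 4 by Wald test (8.65%), 8 with only controls and 1 to 5 leaving out each liver (5 without Tfam KO 3, 7.88%). Interactions gave 2 in Mfn DKO and 4 in Tfam KO without a filter (0.151% and 0.414%), 1 and 2 by Wald test (0.200% and 0.593%), and 0 to 2 and 0 to 18 leaving out each liver, where 17 and 18 rest on 1 Tfam KO liver in each class. The cause was not tested. Scaling by total counts (added after seeing the data) gave 2 lower in Mfn DKO (11.8%) and 8 in Tfam KO (47.9%).

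Whether replicate numbers pair the livers could not be settled. Same-numbered deviations from the group mean correlated from -0.47 to 0.52. The Xist class was not removed from them, and all pairs of 1 class were positive and all mixed pairs negative, whatever their number. With a replicate block 0 members were lower in Mfn DKO (0.993%) and 1 in Tfam KO (2.32%), and 0 higher and 0 lower passed for the Xist class (0.0352%).

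Sex, vector and age are not in the liver labels, and Tfam KO holds 3 livers of which 1 stood apart. The combined fits with the Xist class and a smaller set of livers were chosen after seeing the data.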
